A study of Mus musculus with 6 samples.

Results

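The comparison set 2 arrays of mouse embryonic stem cells labelled GCSF (granulocyte colony-stimulating factor) against 2 arrays of untreated cells labelled control, 4 of the 6 arrays of the series. The arrays were assigned to the groups by their titles, and the comparison was chosen with earlier results of these data known. The description covers the 22961 features that the platform annotation pairs with a gene, of 34760 features in all. Embryonic stem cells are pluripotent cells taken from the early embryo, here of strain C57Bl/6, and all 6 samples stably carried the same chimeric receptor, named GRgp-Y118F. It is designed to join the part of the GCSF receptor that binds the ligand to the inner part of gp130, so that GCSF can switch on gp130 signalling without touching the cells' own receptors. In Y118F a tyrosine of gp130 that recruits the phosphatase SHP2 is replaced by phenylalanine. The labels do not say whether the line was 1 clone or a pool, nor how strongly it expressed the receptor.

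Per the design text, treated cells spent 6 h in medium free of serum and then 1 h with GCSF, or 1 h with leukaemia inhibitory factor (LIF) and the MEK inhibitor PD0325901 at 1 uM in the remaining 2 arrays, labelled LIF/PD. The labels leave unsaid whether the control cells were starved too, so the effect of GCSF and that of 6 h without serum cannot be told apart. Nothing in them says that replicate arrays stand for separate cultures, and the p-values then reflect only how far these arrays scatter, possibly for technical reasons. The series' title asks which genes lie downstream of STAT3.

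A MEK inhibitor blocks the kinase that activates ERK, and transcripts of genes that ERK switches on check that label. Dusp6, which encodes the phosphatase that switches ERK off, had log2 intensities of 10.47 and 10.52 in the control arrays and kept 10.51 and 10.54 under the label LIF/PD. In the arrays labelled GCSF it had 8.93 and 8.94. Spry4, an inhibitor of receptor tyrosine kinase signalling, had 9.97 and 10.04, then 10.12 and 9.98, then 8.12 and 8.22 in the same order. Both genes were thus low where the labels name no inhibitor and at the control level where they name one. The labels were left as deposited. Each direction below therefore holds for the arrays that carry the label GCSF, whatever the cells received.

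As background, gp130 is the signalling chain shared by the receptors of LIF, interleukin 6, oncostatin M and related cytokines. Ligand binding activates JAK kinases, which phosphorylate tyrosines on gp130. Some of these recruit STAT3, which enters the nucleus as a dimer and binds DNA at a split inverted repeat. Another recruits SHP2, which feeds the pathway of RAS, MEK and ERK, and also binds the inhibitor SOCS3. In mouse embryonic stem cells STAT3 sustains self-renewal through factors such as Klf4, while ERK activity, largely driven by FGF4, prepares the cells for differentiation.

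Values are log2 intensities, so a difference of 1 is a 2-fold change, and a feature is a set of probes read as 1 value. A feature was tested where its mean over the 6 arrays lay at or above 6.70, the 40th percentile, which left 14749 gene-annotated features. A feature was called where limma's adjusted p was under 0.05. Over all tested features, named or not, 136 rose (0.804%) and 62 fell (0.367%), 198 in all (1.17%). Among the gene-annotated ones 118 rose (0.8%) and 53 fell (0.359%), 171 in all (1.16%). They named 112 and 48 genes. At an unadjusted p under 0.05 there were 1074 and 732. The differences were mostly small: 33 of the 118 and 12 of the 53 were at least 1.5-fold, and 5 and 4 at least 2-fold. The median over the features that rose was 0.47 and over those that fell -0.38, while over all tested gene-annotated features it was 0.01, with 5% below -0.14 and 5% above 0.16. In every called feature both arrays labelled GCSF lay on one side of both control arrays, but so they did, upward, in 24.7% and, downward, in 18.0% of all tested gene-annotated features.

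Features that fell had a higher median control level, at 10.27, than those that rose, at 8.75, or than the 8.70 over all tested gene-annotated features. With the control levels cut at their quartiles, from the lowest part to the highest, 13 of 3456 features rose and 3 fell (0.463% called), 43 of 3618 rose and 8 fell (1.41%), 41 of 3833 rose and 11 fell (1.36%), and 21 of 3842 rose and 31 fell (1.35%). By transcript class, 107 features of protein-coding genes rose and 43 fell (1.11% of 13510), 4 of long noncoding RNAs rose and 3 fell (2.81% of 249), and 2 of microRNAs rose and 1 fell (3.49% of 86). Of these microRNA features, Mir329 passed the filter only through the arrays labelled GCSF, where it is high. One small nucleolar RNA of 49 fell, Snord57 (-0.38 ± 0.07, chosen after its value was seen), a call lost without either control array, without GCSF replicate 1 or without either LIF/PD array (adjusted p up to 0.229).

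**Figure D1:**
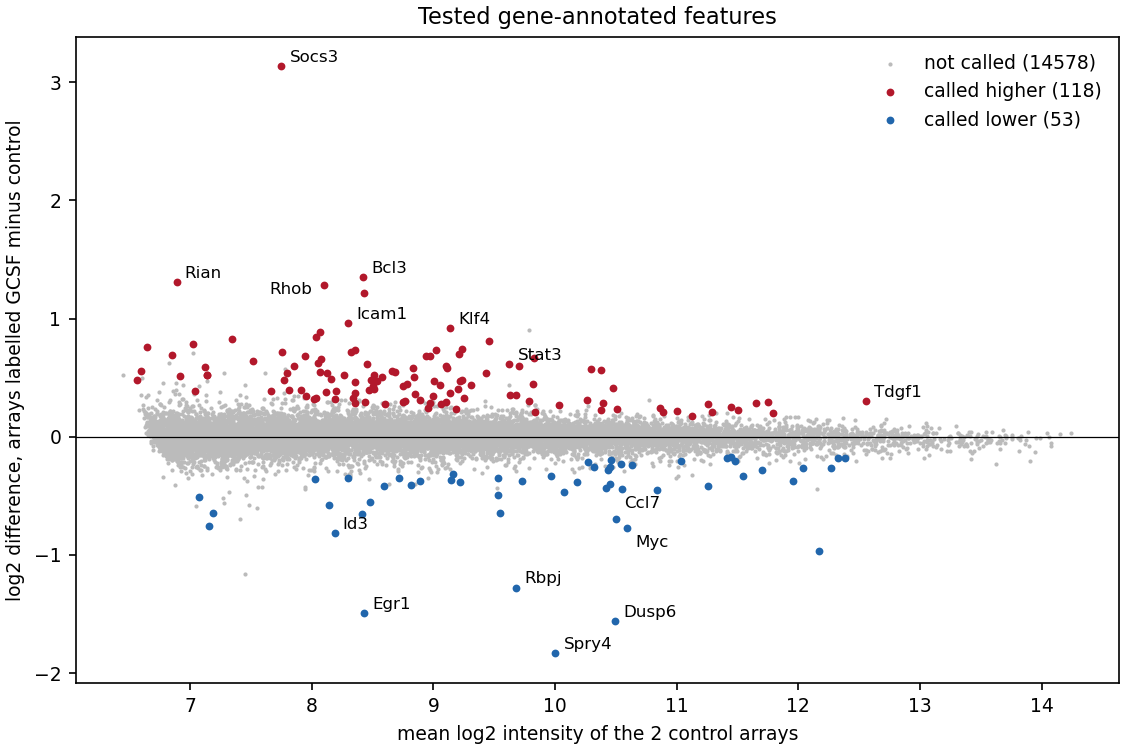
Each point is a tested gene-annotated feature, with the mean log2 intensity of the 2 control arrays across and the log2 difference of the arrays labelled GCSF from control upward; 118 features that rose are red, 53 that fell are blue and the rest are grey. Socs3 stands alone at 3.13, and the falls of Spry4, Dusp6 and Egr1 reach -1.83, -1.56 and -1.49.

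The counts were lower with any 1 array left out, in fits that also had less precision. Median total degrees of freedom were 7.0 to 7.3 in these fits against 8.4 with all arrays. The median standard error was 0.072 to 0.076 without an array of the groups compared, 0.063 without a LIF/PD array and 0.062 with all 6. Reliance on particular arrays and loss of precision cannot be told apart here. With each of the 6 arrays left out in turn, 64 to 106 of the 16912 tested features rose and 24 to 58 fell. Without Control replicate 1 there were 64 and 24, and without Control replicate 2 there were 77 and 31, while without GCSF replicate 1 71 rose. Of the 171 gene-annotated features, 66 (49 higher and 17 lower) passed in all 6 of these fits. Correlations over the tested features were 0.997 between the control arrays, 0.997 between the arrays labelled GCSF and 0.995 to 0.996 between the groups.

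Socs3 had the largest difference of any gene. This feedback inhibitor binds JAK kinases and gp130 and is a classical STAT3 target. Its control values were 7.77 and 7.73, and the arrays labelled GCSF had 10.79 and 10.98. The difference was 3.13 ± 0.07 (standard error, n = 2 arrays per group), 8.78-fold, with an adjusted p of 2.70e-07. A further Socs3 feature differed by 0.51 ± 0.08 (adjusted p = 0.0219), a call lost without Control replicate 1 or either array of the other groups (adjusted p up to 0.163). The 20 largest rises went on with Bcl3, a nuclear partner of NF-kB subunits, from 8.40 and 8.44 to 9.75 and 9.79 (1.35 ± 0.05). Rian, an imprinted long noncoding RNA that hosts small nucleolar RNAs, went from 6.91 and 6.87 to 8.16 and 8.23 (1.31 ± 0.08). Rhob, a small GTPase gene and an immediate early gene, went from 8.16 and 8.04 to 9.44 and 9.32 (1.28 ± 0.07). In all 4 genes the arrays of the groups were far apart relative to the gap between arrays of a group.

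Icam1, a cell adhesion receptor induced by cytokines, rose by 0.96 ± 0.07 and the pluripotency factor Klf4 by 0.92 ± 0.06. The adaptor Dapp1, which binds phosphoinositides, rose by 0.88 ± 0.06. The 20 largest rises also held the growth factor gene Fgf10 (0.78 ± 0.08), the transcription factor genes Tfap2c (0.74 ± 0.06) and En2 (0.69 ± 0.07), the heat shock protein 40 gene Dnajb4 (0.71 ± 0.08) and Slc27a2, a fatty acid transporter and acyl-CoA synthetase (0.68 ± 0.05). Elobl, a gene related to elongin B, rose by 0.81 ± 0.08, and D730005E14Rik by 0.82 ± 0.07, with a difference of 0.22 on its other feature. The rest of the 20 stand with their groups below. All 20 passed with each array left out.

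Among the 15 largest falls, Spry4 differed by -1.83 ± 0.06 (adjusted p = 4.03e-06) and Dusp6 by -1.56 ± 0.04 (adjusted p = 5.66e-07), 3.56-fold and 2.95-fold lower. Egr1, the zinc finger immediate early gene, had 8.49 and 8.38 in the control arrays and 6.98 and 6.90 in those labelled GCSF (-1.49 ± 0.08). Rbpj, the DNA-binding factor of the Notch pathway, had 9.61 and 9.75 against 8.38 and 8.42 on 1 of its 2 features (-1.28 ± 0.06), while the other differed by -0.05. The 2 Rbpj features disagreed, so the fall cannot be given for the gene as a whole. Long noncoding RNAs were also among the 15. Platr8 differed by -0.76 ± 0.12 and did not pass without Control replicate 2, GCSF replicate 2 or either LIF/PD array (adjusted p up to 0.144). Mir100hg, host of a microRNA cluster, differed by -0.65 ± 0.10 and Gm10244 by -0.51 ± 0.07, and neither passed without any 1 of the 4 arrays compared (adjusted p up to 0.155 and 0.101).

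**Figure D2:**
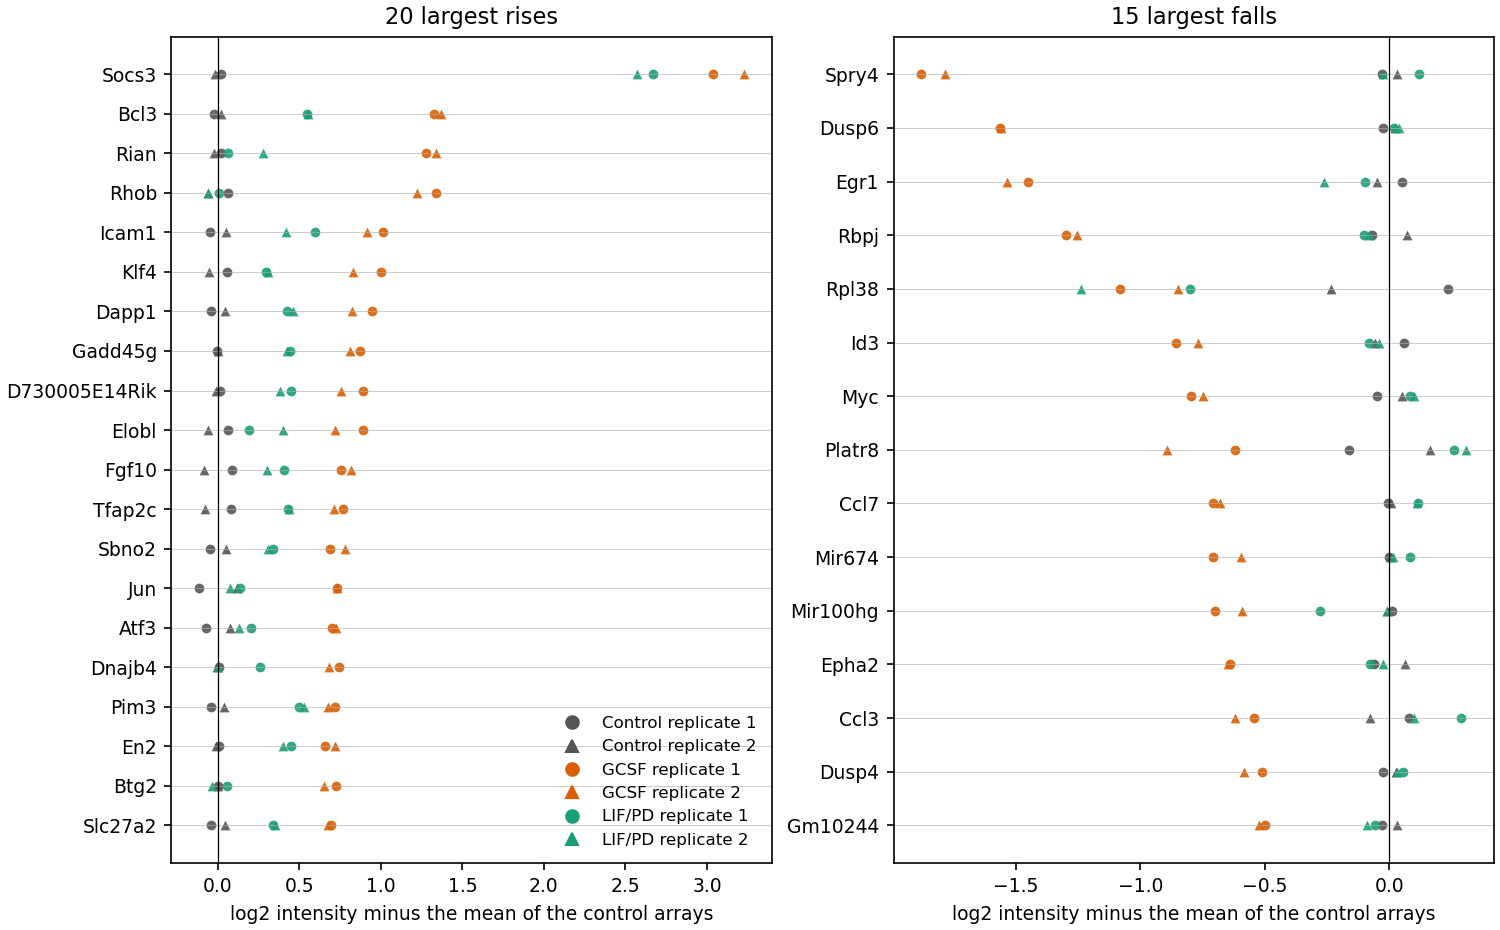
The 20 largest rises (left) and 15 largest falls (right) among called features with 1 gene symbol, each array plotted as its log2 intensity minus the mean of the 2 control arrays. Control arrays are grey, arrays labelled GCSF orange and arrays labelled LIF/PD green, with circles for replicate 1 and triangles for replicate 2; for Rpl38 the control arrays, at 12.41 and 11.94, lie apart and the LIF/PD arrays are as low as those labelled GCSF.

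For the gene groups below, each gene was read from its feature with the highest mean, with its call from the fit on all tested features. At that level 108 of 12949 genes rose (0.834%) and 44 fell (0.34%), 152 in all (1.17%), and the median difference was 0.01. The arrays did not overlap, upward, in 25.3% and, downward, in 17.8% of genes. Each group is described by its count and its median beside these figures, and nothing is read from a share near them. Median centring or quantile normalization turned the sign of some group medians, each within 0.03 of 0, and medians that near to 0 are given without a direction.

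The receptors came first. Of 10 tested gp130 family ligands and receptors, 2 rose and 0 fell (median 0.02). Osmr, the oncostatin M receptor chain, went from 8.45 and 8.58 to 9.05 and 9.02 (0.52 ± 0.06). Lifr, the LIF receptor chain and the neighbour of Osmr on chromosome 15, went from 9.67 and 9.69 to 10.09 and 9.96 (0.35 ± 0.06). In both genes the groups did not overlap, but Lifr did not pass without either control array or without GCSF replicate 1 (adjusted p up to 0.194). Il6st, which encodes gp130, had 10.74 and 10.71 against 10.87 and 10.83, a difference of 0.12 ± 0.04 (adjusted p = 0.215). Mouse Csf3r, which encodes the GCSF receptor, was too dim to test, at 5.79 and 5.96 against 5.97 and 5.83, and no order is seen in these values. Whether its feature reads the receptor construct is not known here.

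Of 19 JAK kinases, STAT factors and their regulators, 2 rose and 0 fell (median 0.04). Stat3 itself had 9.67 and 9.58 against 10.27 and 10.20 (0.61 ± 0.05, adjusted p = 0.000428). Stat2, a factor of the interferon response, differed by 0.40 ± 0.06, a call lost without any 1 of the 4 arrays compared (adjusted p up to 0.127). Jak1 differed by 0.07 ± 0.04 and Sh2b3, an inhibitory adaptor, by -0.17 ± 0.06, and neither passed.

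Of 8 SOCS family genes Socs3 alone rose and 0 fell (median 0.16). Cish, another STAT target, lay at 6.87 and 7.01 against 7.29 and 7.47, a difference of 0.44 ± 0.11 that did not pass (adjusted p = 0.140). Socs7 differed by 0.19 ± 0.05, Socs2 by 0.15 ± 0.04 and Socs1 by 0.05 ± 0.09, none passing. In 5 of the 8 both arrays labelled GCSF were above both controls, and in 2 both were below.

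Of 33 tested STAT3 targets known from many tissues, 11 rose and 0 fell, and 22 did not pass (median 0.12). With single arrays left out, 10 or 11 rose. Besides Socs3, Bcl3, Icam1, Stat3 and Osmr they were Gadd45g, a growth arrest gene, Sbno2, a corepressor induced by interleukin 10, the kinase gene Pim3, the AP-1 subunit Junb and the interferon regulatory factors Irf9 and Irf1. Gadd45g had 8.03 and 8.03 against 8.90 and 8.84 (0.84 ± 0.05). Sbno2 had 8.31 and 8.41 against 9.05 and 9.14 (0.74 ± 0.06). Pim3 had 9.17 and 9.25 against 9.93 and 9.89 (0.70 ± 0.05). In these 3 genes the arrays of a group lay close together and the groups apart. Junb rose by 0.59 ± 0.07. Irf1 rose by 0.43 ± 0.05 on its brighter feature but not without Control replicate 2 (adjusted p = 0.0603), and differed by 0.12 on its dimmer one. Pim1 (-0.03 ± 0.06), Mcl1, an antiapoptotic gene (0.07 ± 0.04), Ccnd1, the gene of cyclin D1 (-0.03 ± 0.03), Fos (-0.29 ± 0.09) and Bcl2l1, another antiapoptotic gene (-0.21 ± 0.06), did not pass. The list overlaps others below, and it was written with earlier results of these arrays known.

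STAT dimers bind the letters TTCNNNGAA, an inverted repeat that reads the same on both strands. Among the 250 bases before the start site, in RefSeq promoters of build GRCm38.p6, these letters were in 14.2% of 113 promoters of genes that rose, 11.6% of 43 promoters of genes that fell, 5.78% of 13088 promoters of tested genes and 7.02% of all 32851. Promoters were matched for 92 of the 112 genes that rose and 30 of the 48 that fell. The genes that rose and hold it were Socs3, Icam1, Sbno2, Irf1, Rian, Sod2, Zfp36, Sgk1, Gcnt2, D730005E14Rik, Dnmbp, Paqr8, Urah and Zscan10, and those that fell were Rab25, Slc39a10, Tgif1, Zfp719 and Zfp93. The sequences of 5 are shown, chosen after their values were seen: the 4 members of the list of STAT3 targets that rose and hold the word, and Rian, the long noncoding RNA with the largest rise, with the word in capitals and the surrounding bases in lower case. The array's own annotation names no build in the sources used here.

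Socs3, chr11:117969492-117969540, minus strand: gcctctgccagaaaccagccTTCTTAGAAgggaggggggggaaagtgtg
Icam1, chr9:21015878-21015926, plus strand: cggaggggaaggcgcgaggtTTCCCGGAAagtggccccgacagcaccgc
Sbno2, chr10:80102703-80102748, minus strand: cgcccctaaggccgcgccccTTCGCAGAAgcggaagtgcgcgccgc
Irf1, chr11:53769904-53769952, plus strand: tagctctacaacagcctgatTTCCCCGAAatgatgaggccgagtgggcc
Rian, chr12:109603879-109603927, plus strand: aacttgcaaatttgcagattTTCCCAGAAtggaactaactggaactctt

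The last base of the word lies 146 bases before the start site in Socs3, 34 in Icam1, 18 in Sbno2, 82 in Irf1 and 38 in Rian. A match of letters is not evidence of binding. The stricter form TTCCNGGAA, contained in the first word, was in 2.65% of the promoters of genes that rose (Icam1, Sbno2 and Zscan10, a zinc finger gene whose rise of 0.28 ± 0.05 was lost without any 1 of the 6 arrays, adjusted p up to 0.250), 0 of the 43 of genes that fell and 0.963% of those tested. In Sbno2 the stricter form lies in a different promoter entry from the one printed above, whose word, TTCGCAGAA, does not match it. Both strands were searched for 4 further words, again as shares of promoters of genes that rose, genes that fell and all tested genes. An interferon-stimulated response element, written as a pair of GAAA runs with 2 bases between them, was in 6.19%, 4.65% and 2.32%. The cyclic AMP element TGACGTCA was in 5.31%, 6.98% and 2.51%, and the AP-1 site TGANTCA in 2.65%, 0 and 4.45%. The ETS site CCGGAAGT was in 0 of 113, 2.33% and 5.33%. Counts behind these shares are small, from 0 to 16 promoters among the genes called.

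Of 22 interferon response genes 5 rose and 0 fell (median 0.12), and in 13 the arrays labelled GCSF both lay above control. With single arrays left out fewer rose, in fits that also had less precision. Irf9, the DNA-binding part of the complex that answers interferon, had 8.30 and 8.24 against 8.77 and 8.81 (0.52 ± 0.05) and passed in all these fits. Ifit1, an antiviral RNA-binding protein, had 7.62 and 7.41 against 8.23 and 8.08 (0.64 ± 0.12). Usp18, a brake on the interferon receptor, had 7.98 and 7.93 against 8.35 and 8.26 (0.35 ± 0.06). Ifit1 and Stat2 did not pass without any 1 of the 4 arrays compared, and Usp18 without any 1 of the 6 (adjusted p up to 0.230 for Ifit1 and 0.222 for Usp18). Irf1 completes the 5.

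Of 20 NF-kB pathway and inflammatory genes, Bcl3 and Icam1 rose and the chemokine genes Ccl7 and Ccl2 fell (median 0.03). Ccl7 had 10.50 and 10.51 against 9.80 and 9.83 (-0.69 ± 0.04). Its chromosomal neighbour Ccl2 had 10.84 and 10.83 against 10.39 and 10.38 (-0.45 ± 0.05). Another chemokine, Ccl3, among the 15 largest falls, had 8.22 and 8.07 against 7.60 and 7.53 (-0.58 ± 0.08) and did not pass without Control replicate 1 or either array labelled GCSF (adjusted p up to 0.137). These chemokines are known from fibroblasts and macrophages. Of 7 tested blood cell markers 0 were called, with all 7 differences below 0 (median -0.04). The macrophage genes Lyz2 and Cd68 stood at 11.64 and 11.61 against 11.53 and 11.58, and at 10.67 and 10.65 against 10.48 and 10.53. Their part in the chemokine values was not tested.

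The LIF-responsive pluripotency genes moved in both directions. Of 17 tested, 6 rose and 2 fell (median 0.12). Klf4 had 9.19 and 9.09 against 10.14 and 9.97, a 1.89-fold rise. Klf5 had 10.38 and 10.38 against 10.97 and 10.92 (0.56 ± 0.04). Gbx2, a homeobox gene, had 8.05 and 8.10 against 8.61 and 8.87 (0.66 ± 0.08). All 3 transcription factors can support self-renewal when expressed at high levels. Mycn rose by 0.41 ± 0.04, Pim3 as above, and the zinc finger gene Sall4 by 0.23 ± 0.03. Myc had 10.54 and 10.64 against 9.80 and 9.84 (-0.77 ± 0.04), and the nuclear receptor gene Nr0b1 differed by -0.18 ± 0.03. Gbx2 did not pass without Control replicate 1 (adjusted p = 0.0682), Sall4 without any 1 of the 4 arrays compared (up to 0.150) and Nr0b1 without any 1 of the 6 (up to 0.212). Tbx3 (0.21 ± 0.05, adjusted p = 0.0959), Tfcp2l1 (0.12 ± 0.04) and Klf2 (0.13 ± 0.04) did not pass.

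In the KLF family 3 of 15 rose and 0 fell (median 0.10), with both arrays labelled GCSF above control in 9. They were Klf4, Klf5 and Klf6, the last a widely expressed immediate early member (0.48 ± 0.05). Of 13 genes of the MYC and MAX network Mycn rose and Myc fell (median 0.03). The 2 paralogues thus changed in opposite directions, both with each array left out.

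Of 25 core pluripotency genes 4 rose and 1 fell (median 0.01). Fbxo15, an F-box gene of undifferentiated cells, rose by 0.35 ± 0.06, Tdgf1, the Nodal co-receptor, by 0.30 ± 0.03 and Fgf4, the main FGF of these cells, by 0.29 ± 0.03, beside Sall4 and the fall of Nr0b1. With single arrays left out 1 to 4 rose. Tdgf1 passed in each case, while Fgf4 failed without Control replicate 1 (adjusted p = 0.0607) and Fbxo15 without any 1 of the 4 arrays compared (up to 0.158). The central factors did not pass. Pou5f1 had 12.64 and 12.64 against 12.59 and 12.61 (-0.04 ± 0.03), with a 95% interval of -0.11 to 0.03. Sox2 differed by 0.10 ± 0.04, Nanog by 0.10 ± 0.03, Esrrb by 0.04 ± 0.03, Zfp42 by 0.03 ± 0.06 and Utf1 by -0.16 ± 0.03 (adjusted p = 0.0527).

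**Figure D3:**
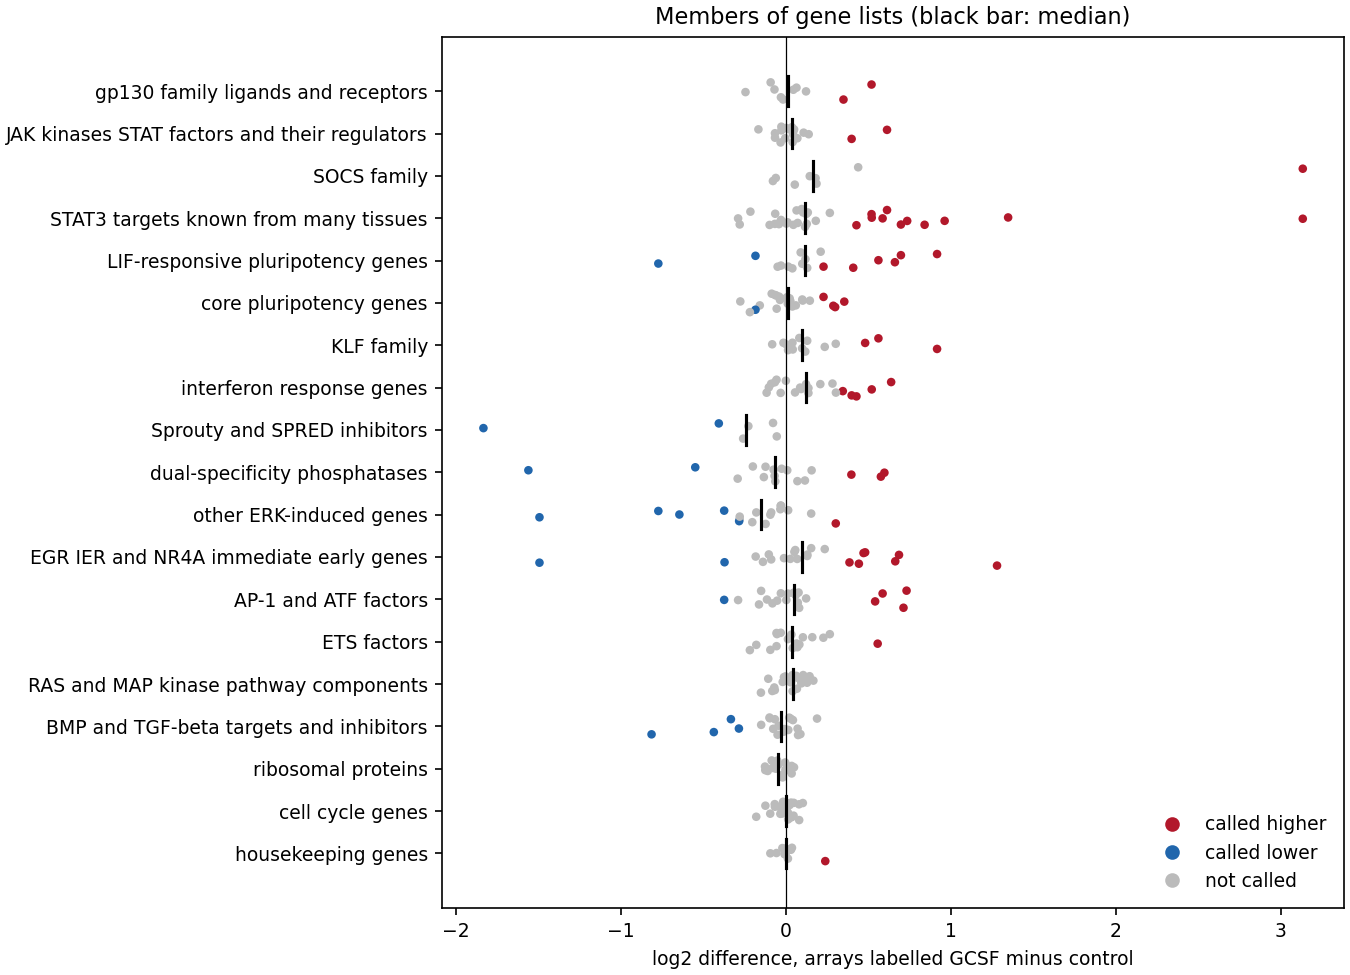
Log2 differences of the arrays labelled GCSF from control for the members of 19 gene lists, 1 point per tested gene (its feature with the highest mean), red where it rose, blue where it fell and grey where it was not called; black bars are medians. STAT3 targets hold 11 rises and no fall, the Sprouty and SPRED genes hold 2 falls and no rise, and the dual-specificity phosphatases hold both.

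Inhibitors of the ERK pathway had the largest falls. Of 6 tested Sprouty and SPRED genes 2 fell and 0 rose (median -0.24), and all 6 differences were below 0, the nearest at -0.05. Spry1 had 8.76 and 8.88 against 8.33 and 8.49 (-0.41 ± 0.07). It passed only without GCSF replicate 2 among the single arrays left out (adjusted p up to 0.221). Spry2 (-0.26 ± 0.06, adjusted p = 0.136) and Spred1 (-0.23 ± 0.05, adjusted p = 0.0946) did not pass, with non-overlapping arrays in both.

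The dual-specificity phosphatases split. Of 17 tested, 3 rose and 2 fell (median -0.06). The 2 that fell, Dusp6 and Dusp4, encode phosphatases that act on ERK and are switched on by it. Dusp4 had 8.45 and 8.51 against 7.97 and 7.89 (-0.55 ± 0.06). Dusp5, a nuclear ERK phosphatase, had 8.76 and 8.66 against 8.43 and 8.41, just short of the threshold (-0.29 ± 0.05, adjusted p = 0.0501). Of those that rose, Dusp1 and Dusp10 act mainly on the stress kinases JNK and p38. Dusp1 had 10.28 and 10.31 against 10.86 and 10.88 (0.58 ± 0.03), and Dusp10 had 7.80 and 7.91 against 8.47 and 8.43 (0.60 ± 0.06). Dusp8, another JNK phosphatase, rose by 0.40 ± 0.06 but failed without any 1 of the 4 arrays compared or without LIF/PD replicate 1 (adjusted p up to 0.127).

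Of 18 other genes known to be induced by ERK, 5 fell and 1 rose (median -0.15). In 12 both arrays labelled GCSF lay below control. Besides Egr1 and Myc the falls were Epha2, an ephrin receptor (9.49 and 9.61 against 8.91 and 8.90, -0.64 ± 0.05), the AP-1 subunit Fosl1 (-0.37 ± 0.07) and Errfi1, a feedback inhibitor of the EGF receptor (-0.28 ± 0.04). Epha4, a further ephrin receptor, rose by 0.30 ± 0.05. Epha2 passed with each array left out. Errfi1 failed without any 1 of the 4 arrays compared (adjusted p up to 0.178), Fosl1 without 5 of the 6, all but Control replicate 2 (up to 0.248), and Epha4 without any 1 of the 6 (up to 0.150). The ETS factors Etv4 and Etv5, classical FGF and ERK targets, gave less. Etv4 differed by -0.09 ± 0.06. Etv5 differed by -0.03 ± 0.03 on its brighter feature and by -0.25 ± 0.04 on the dimmer one, which was called (adjusted p = 0.0306) but failed without any 1 of the 6 arrays (up to 0.263). The transcripts of the pathway's own parts gave no call: of 22 RAS and MAP kinase pathway components 0 were called and 4 had an unadjusted p under 0.05 (median 0.04, range -0.15 to 0.17).

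Immediate early genes, which respond to signals within the first hour without new protein, did not move as 1 group. Of 22 EGR, IER, NR4A and similar genes 7 rose and 2 fell (median 0.10). Rhob led the rises. Btg2, an antiproliferative gene, had 8.98 and 8.98 against 9.70 and 9.63 (0.69 ± 0.05). Ccn1, a matrix protein gene that answers to SRF and YAP, had 9.88 and 9.77 against 10.45 and 10.53 (0.66 ± 0.06). The polo-like kinase gene Plk2 rose by 0.47 ± 0.05, the kinase gene Sgk1 by 0.44 ± 0.05 and Zfp36, whose protein destabilises cytokine mRNAs, by 0.39 ± 0.06, beside Klf6. Egr1 and Plk3 (-0.37 ± 0.04) fell. Zfp36 failed without any 1 of the 6 arrays (adjusted p up to 0.169) and Plk3 without either control array (up to 0.0522).

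Of 22 AP-1 and ATF factors 4 rose and 1 fell (median 0.05). Jun had 8.91 and 9.14 against 9.76 and 9.76 (0.73 ± 0.07), and the stress-induced Atf3 had 7.68 and 7.83 against 8.45 and 8.48 (0.71 ± 0.07). Junb and Fosl2 (0.54 ± 0.07) also rose, Fosl2 not without Control replicate 1 (adjusted p = 0.0699), and Fosl1 fell. Members of this one dimerising family therefore stood on both sides of control. Of 18 ETS factors Spic, known from macrophages of the spleen, rose (0.56 ± 0.07, from 6.62 and 6.57) and 0 fell (median 0.04). All its control and LIF/PD values (6.68 and 6.63 in LIF/PD) lay below the filter of 6.70. Spic was thus tested only through the arrays labelled GCSF, where it is high, and its call adds no support. Spic failed without either control array or GCSF replicate 2 (adjusted p up to 0.0769).

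Of 18 GADD45 and p53 targets 4 rose and 2 fell (median 0.04). The 3 GADD45 genes, sensors of stress and growth arrest, moved apart. Gadd45g rose by 0.84 as above and Gadd45b rose by 0.50 ± 0.06, whereas Gadd45a had 9.16 and 9.17 against 8.85 and 8.83 (-0.32 ± 0.06). Gadd45b failed without Control replicate 1 (adjusted p = 0.0565) and Gadd45a without any 1 of the 4 arrays compared (up to 0.228). Of 28 SRF and YAP targets 3 rose and 0 fell (median 0.02): Rhob, Ccn1 and Amotl2, an inhibitor of YAP (0.33 ± 0.06), which failed without any 1 of the 6 arrays (up to 0.225). Of 18 mRNA decay regulators Btg2 and Zfp36 rose and Zfp36l2 fell (median 0.07). Zfp36 and Zfp36l2 encode related proteins that bind AU-rich elements, and their differences had opposite signs, 0.39 and -0.40 ± 0.04.

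BMP signalling cooperates with LIF in serum-free culture by inducing Id genes. Of 22 BMP and TGF-beta targets and inhibitors 4 fell and 0 rose (median -0.03). Id3 had 8.25 and 8.13 against 7.33 and 7.42 (-0.81 ± 0.07). The ligand gene Bmp4 had 10.41 and 10.42 against 9.93 and 10.03 (-0.44 ± 0.04). Smad7, the inhibitory SMAD, had 9.98 and 9.95 against 9.62 and 9.65 (-0.33 ± 0.04), and the corepressor Tgif1 fell by 0.28 ± 0.03. Id1 (-0.15 ± 0.07) and Id2 (0.19 ± 0.05) did not pass. Smad7 failed without Control replicate 1 (adjusted p = 0.0723) and Tgif1 without either control array (up to 0.0759).

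Other developmental pathways gave from 0 to 2 calls a list. Of 14 Nodal pathway genes Tdgf1 rose and 0 fell (median 0.00), and Nodal itself lay just short of the threshold at -0.22 ± 0.04 (adjusted p = 0.0510). Of 19 WNT feedback and target genes Dact1, a regulator of Dishevelled, had 8.10 and 8.04 against 8.62 and 8.62 (0.54 ± 0.05) and 0 fell (median 0.03). Of 17 FGF ligands and receptors Fgf10 and Fgf4 rose and 0 fell (median 0.01). Of 15 Eph receptors and ephrins, Epha4 rose and Epha2 fell (median 0.00). Of 23 Notch pathway genes, which take Rbpj at its other feature, 0 were called, with 2 at an unadjusted p under 0.05 (median 0.01). Of 8 LPA and S1P receptors S1pr1 rose by 0.38 ± 0.07, a call lost without any 1 of the 6 arrays (adjusted p up to 0.248), and 0 fell (median -0.03).

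The imprinted Dlk1-Dio3 region on chromosome 12 holds maternally expressed noncoding RNAs, among them Meg3, Rian and many microRNAs, and is known for varying between lines of mouse stem cells. It was singled out after the value of Rian was seen. Of its 48 features with 1 symbol 20 were tested, and 3 rose and 0 fell (beside 1.16% called of all tested gene-annotated features). Rian stood at 6.95 and 7.17 in the arrays labelled LIF/PD, close to control. Mir341 had 9.31 and 9.32 against 9.72 and 9.78 (0.44 ± 0.06), and Mir329 had 6.63 and 6.49 against 7.04 and 7.03 (0.48 ± 0.09). All control and LIF/PD values of Mir329 (6.61 and 6.44 in LIF/PD) lay below the filter of 6.70. It was thus tested only through the arrays labelled GCSF, where it is high, and its call adds no support. The features of these microRNAs may read the precursor or the host transcript and do not measure the mature form. Mir341 failed without any 1 of the 4 arrays compared (adjusted p up to 0.149) and Mir329 without any 1 of the 6 (up to 0.230), while Rian passed in all these fits. Meg3 had 9.67 and 9.79 against 9.89 and 10.01, which did not pass (0.23 ± 0.08, adjusted p = 0.296). The other 16 tested features gave no call either, and the median of the 20 was 0.06. Dlk1 (-0.03 ± 0.07) and Rtl1 (0.06 ± 0.08), paternally expressed coding genes of the region, overlapped control.

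**Figure D4:**
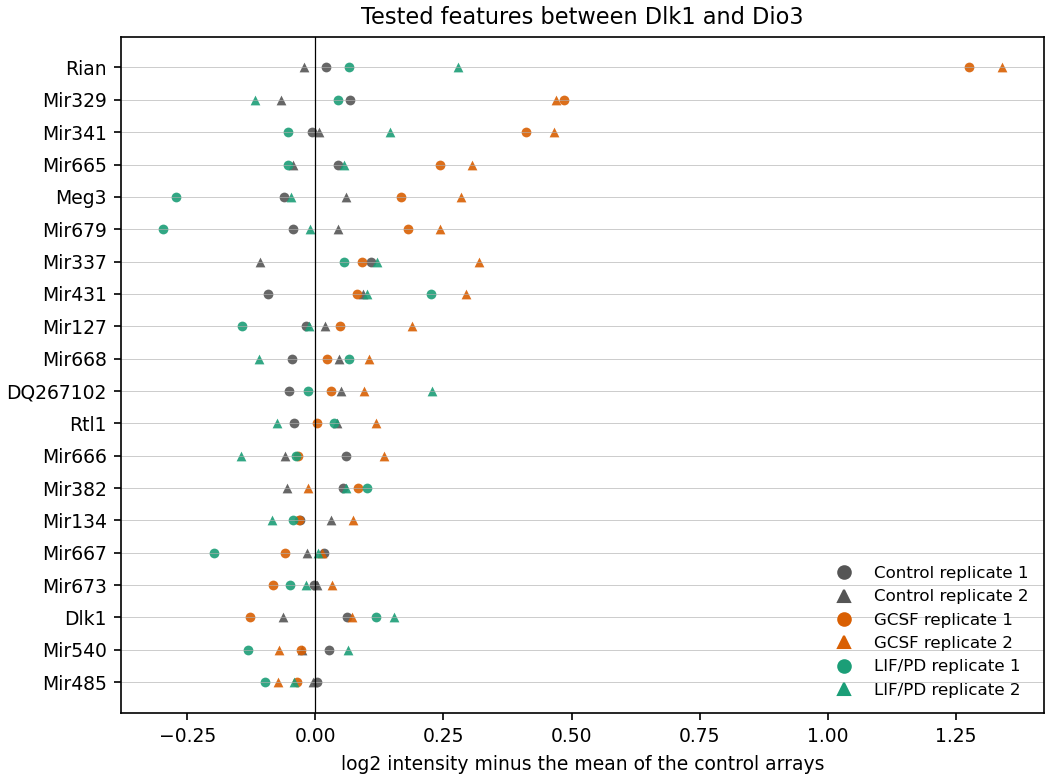
The 20 tested features with 1 gene symbol between Dlk1 and Dio3, each array plotted as log2 intensity minus the mean of the 2 control arrays, with colours for the groups (grey control, orange GCSF, green LIF/PD) and shapes for the replicates. Rian lies apart at 1.31, Mir329 and Mir341 follow at 0.48 and 0.44, and most other features overlap control. Mir329 passed the filter only through the arrays labelled GCSF.

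Outside that region Mir674 on chromosome 2 fell, from 8.41 and 8.42 to 7.71 and 7.82 (-0.65 ± 0.06, adjusted p = 0.00175), with 8.50 and 8.43 in the arrays labelled LIF/PD. It passed with each array left out. Of 299 microRNA features 86 were tested, and 3 were called, among them Mir329, which passed the filter only through the arrays labelled GCSF. The mature sequences that RefSeq gives for these 3 hairpins are shown, with the seed, bases 2 to 8, in capitals, because no pair of them shares a seed.

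miR-674-5p: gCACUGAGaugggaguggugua
miR-674-3p: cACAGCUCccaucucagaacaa
miR-341-5p: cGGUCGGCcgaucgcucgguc
miR-341-3p: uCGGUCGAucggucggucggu
miR-329-5p: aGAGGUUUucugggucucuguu
miR-329-3p: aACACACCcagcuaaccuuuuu

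Of 14 other imprinted transcripts, Peg3, a paternally expressed zinc finger gene, rose by 0.25 ± 0.04 and 0 fell (median 0.01). It failed without either control array or GCSF replicate 1 (adjusted p up to 0.222). Of the 4 tested Dlk1-Dio3 transcripts that are not small RNAs Rian alone was called.

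Metabolic and general groups stayed close to control. Hk2, the gene of hexokinase II, rose (9.28 and 9.15 against 9.67 and 9.72, 0.47 ± 0.05), the 1 call among 21 glycolysis and hypoxia genes (median 0.05). Of 19 cholesterol synthesis genes Msmo1 (0.22 ± 0.04) and Hmgcs1 (0.21 ± 0.03) rose (median 0.03), and of 28 ribosome biogenesis genes Rrs1 did (0.39 ± 0.07, median 0.02). Msmo1 failed without 5 of the 6 arrays, all but GCSF replicate 2, and Hmgcs1 and Rrs1 without any 1 of the 6 (adjusted p up to 0.263, 0.257 and 0.289). Of 12 housekeeping genes Tfrc, the transferrin receptor gene, rose by 0.24 ± 0.03 and failed without either control array or GCSF replicate 1 (up to 0.140). Actb differed by 0.04 ± 0.03. Of 17 genes known to respond to serum-free medium Rhob rose and Zfp36l2 fell (median 0.01). Of 15 DNA methylation and TET genes Gadd45a alone fell (median 0.00).

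No member was called in several groups. These were 23 PI3K and AKT pathway components (2 at an unadjusted p under 0.05), 14 BCL2 family genes (5), 30 chromatin regulators (5), 24 heat shock and unfolded protein response genes (4), 28 cell cycle genes (2), 23 respiratory chain genes (4) and 11 germ cell genes (1). Their medians lay between -0.02 and 0.06. Trib3, a target of the unfolded protein response, came closest (0.31 ± 0.06, adjusted p = 0.0504). Of 18 ribosomal protein genes 0 were called and 2 had an unadjusted p under 0.05 (median -0.05), with both arrays labelled GCSF below control in 11. Among the 15 largest falls was a dimmer feature of Rpl38, at 12.41 and 11.94 against 11.09 and 11.32 (-0.96 ± 0.17), where the control arrays themselves lay apart. Its call was lost without Control replicate 1 or either array labelled GCSF (adjusted p up to 0.213), and the brightest Rpl38 feature differed by -0.12 ± 0.04. Of 8 genes of the 2-cell embryo on the array 0 passed the filter.

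Markers of the labelled cell type were read next, and 13 of 14 embryonic stem cell markers passed the filter. The mean over 14 embryonic stem cell markers was 11.23 and 11.20 in the control arrays and 11.26 and 11.27 in those labelled GCSF. Tdgf1 and Fgf4 were the 2 calls among its 13 tested genes. Markers of feeder fibroblasts, on which such cells are often grown, averaged 9.84 and 9.85 against 9.85 and 9.84 over 18 genes. The collagen genes Col1a1 (10.83 and 10.81) and Col1a2 (10.43 and 10.42) and the vimentin gene Vim (13.47 and 13.45) were well above the filter in the control arrays. These were chosen after their values were seen, and another marker, Lum, was below the filter at 5.61 and 5.73. Levels of different probes cannot be set against each other. Col3a1 alone was called among 17 tested (0.29 ± 0.05), and not without any 1 of the 6 arrays (adjusted p up to 0.286). In such bulk RNA, fibroblasts among the cells cannot be told apart from expression in the stem cells, nor fewer cells of a type from less RNA per cell.

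Markers of other lineages were read for changes only, since the levels of different probes cannot be set against each other. Of 11 primitive endoderm markers Lama1, a laminin gene, rose by 0.43 ± 0.05, not without Control replicate 1 (adjusted p = 0.0592). Of 13 trophoblast markers Tfap2c rose, from 9.32 and 9.16 to 10.00 and 9.95, and it is expressed in stem cells too. Of 13 epiblast and neuroectoderm markers Pax6 rose by 0.54 ± 0.07, not without Control replicate 1 (up to 0.0817). Of 9 mesoderm and primitive streak markers 0 were called and 2 had an unadjusted p under 0.05.

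Several called genes were neighbours. In 9 pairs both of 2 adjacent tested genes were called, each pair in 1 direction, of 12899 adjacent pairs in all (0.0698%). Of the 295 pairs with at least 1 gene called 3.05% had both called, and no test was made of this. The share of single genes called, 1.17%, is a different measure and not a reference for that share of pairs. Besides Ccl2 with Ccl7, Osmr with Lifr, and Rian with Mir341, they were Bcl3 with Pvr, the poliovirus receptor gene (0.54 ± 0.04), Helb, a DNA helicase gene, with Irak3, an inhibitor of Toll-like receptor signalling (0.41 ± 0.04 and 0.58 ± 0.06), and Junb with Hook2 (0.28 ± 0.05). En2 stood beside Cnpy1 (0.29 ± 0.05). Elobl, 2210409E12Rik (0.60 ± 0.05) and Coil, the gene of the Cajal body protein coilin (0.44 ± 0.05), formed a run of 3 on chromosome 11. Hook2 and Cnpy1 failed without any 1 of the 6 arrays (adjusted p up to 0.233 and 0.230). The pairs were chosen after their values were seen.

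The arrays labelled LIF/PD give a second look at these genes in cells of the same line, and the difference between GCSF and LIF/PD was tested in the same fit. It passed for 143 features (0.846%), 120 of them gene-annotated (0.814%), and at the level of genes for 99 (0.765%). It passed for 45 of the 118 that rose against control and for 35 of the 53 that fell. With each of the 6 arrays left out in turn, 30 to 91 of all tested features passed. The arrays labelled GCSF enter both differences, so these shares are not independent of the calls. Of all tested features 71 passed without the intensity trend of the fit. With the median of each array's control features as a covariate 26 passed. Rhob (8.11 and 8.04 in LIF/PD), Btg2 (9.04 and 8.94) and Rian stood near control there, and the differences of GCSF from LIF/PD were 1.31 ± 0.07, 0.68 ± 0.05 and 1.14 ± 0.08. Bcl3 (8.97 and 8.97) and Klf4 (9.44 and 9.45) stood between the groups, with 0.80 ± 0.05 and 0.62 ± 0.06. Socs3 was high in both treated groups, at 10.42 and 10.32 in LIF/PD, and the difference of 0.51 ± 0.07 passed (adjusted p = 0.0123).

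For other genes that rose, the difference from LIF/PD did not pass. Junb (7.68 and 7.73 in LIF/PD) differed by 0.00 ± 0.07, Gbx2 (8.75 and 8.75) by -0.01 ± 0.08, Dact1 (8.61 and 8.57) by 0.02 ± 0.05 and Klf5 (10.83 and 10.80) by 0.13 ± 0.04 (adjusted p = 0.188). The falls of Myc, Id3, Bmp4, Smad7, Ccl7, Ccl2, Dusp4 and Epha2 differed from LIF/PD, by -0.86 for Myc to -0.43 for Smad7, with adjusted p from 4.57e-05 to 0.0029. In LIF/PD the 2 Myc values were 10.68 and 10.69 and the 2 Id3 values 8.10 and 8.15.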

How the data were processed

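Biotin-labelled total RNA of 6 samples was measured on single-colour whole-transcript arrays. The authors deposited 1 table of 34760 features, 1 column per array, with values from 2.29 to 14.50 that were read as log2 intensity from this range. How the authors arrived at them (log base, background correction, summarization, normalization) is not stated in the sources used here, and the log2 values were kept as deposited. Having 2 arrays a group limits the precision.

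The platform annotation gave 1 symbol for 21640 features and several for 1321, which named no gene. After a block of 6573 control features was set aside, the 16912 features whose mean reached the 40th percentile (6.70) entered the tests. The model, fitted with limma 3.58.1 (R 4.3.3) to all 6 arrays, had 1 mean per group and a variance trend with intensity, which left 3 residual degrees of freedom (8.4 with those shared across features). P-values are two-sided, with Benjamini-Hochberg adjustment across these features, and errors are standard errors with n = 2 arrays per group. The fit was also run on simulated data that gave all features the same spread, unlike these arrays, so that run cannot vouch for the calls.

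The comparison and the 51 gene lists (1048 entries, 778 genes tested) were chosen with earlier results of these data known. Named were the 20 largest rises and 15 largest falls with 1 symbol and arrays that did not overlap, called list members, up to 3 members of each list with the smallest p, and a fixed set of receptor, STAT3, pluripotency, ERK and housekeeping genes whatever their value. Genes named outside that rule (Snord57, Mir341, Mir329, Dlk1, chromosomal neighbours of called genes, second features of a gene, Col1a1, Col1a2, Vim, Dusp5, Id1, Id2 and genes named only for a promoter word) were chosen after their values were seen. Alternatives covered the replicate block, arrays fitted, filter, scaling, variance model, several features per gene, a fold threshold and each array left out.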

Additional observations from a re-analysis of the deposited data

How the results depend on the processing

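None of the called differences changed direction under the 20 alternatives in which they had a value. Most of these alternatives could not have changed it. Filters, variance models and the fold threshold leave the difference itself as it is. Arrays that do not overlap keep its sign when any 1 of them is left out. Of 86 named genes that were called, 48 passed under each alternative other than the fold threshold in which they had a value, which was all 19 for 40 of them and 16 to 18 for the other 8. Against 136 features higher, 62 lower and 143 that differed between GCSF and LIF/PD, leaving out the intensity trend gave 32 lower and 71 that differed, and the median of the control features as a covariate gave 66, 33 and 26. That median was 6.66 and 6.71 in the control arrays and 6.84 and 6.71 in those labelled GCSF. A fit on 1 feature per gene gave 178 higher and 98 lower with the brightest feature, and 184 and 96 with the mean of the features. These fits had 11.5 and 11.8 total degrees of freedom against 8.4. They called 276 and 280 of 12949 genes, against 152 with calls taken from the fit on all tested features. A threshold of 1.5-fold left 41, 15 and 32. With single arrays left out the counts ran from 64 to 106 higher, 24 to 58 lower and 30 to 91 that differed. The replicate number as a block gave 125 higher, 70 lower and 165 that differed, with 173 of the 198 calls against control shared. Deviations of arrays with the same number correlated at 0.0071 between control and GCSF. The correlation was 0.084 between control and LIF/PD and 0.099 between GCSF and LIF/PD. With 2 arrays a group these values cannot settle whether arrays of the same number were paired. Fitting only the 2 groups compared gave 95 higher and 43 lower. The cause of these shifts was not tested.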

Other observations

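Features without a gene name held further large rises beside Rian. Identifiers of this array mostly follow the genome, since 94.8% of neighbouring named features shared a chromosome. Between the identifiers of Meg3 and Dio3 lie 58 features, and 45 of the 46 with 1 symbol are on chromosome 12. Of the 7 tested features without a gene in this run 6 rose and 0 fell, by 0.79 to 1.42, against 18 higher and 9 lower of all 2163 tested features without a gene (1.25%). The largest had 8.99 and 9.15 in the control arrays, 10.50 and 10.49 in those labelled GCSF and 9.46 and 9.45 in those labelled LIF/PD, a difference from control of 1.42 ± 0.06. Another had 7.27 and 7.47 against 8.85 and 8.71, and 7.65 and 7.77 in LIF/PD (1.41 ± 0.09). The feature that rose by 0.86 had 6.57 and 6.53 in control and 6.74 and 6.48 in LIF/PD. It reached the filter of 6.70 only through the arrays labelled GCSF, at 7.59 and 7.24, so its rise adds no support to the count. Of the 6, 5 passed under every alternative other than the fold threshold in which they had a value. The fits on 1 feature per gene hold no feature without a gene name. One of 2 tested features annotated with several genes in the run also rose, from 8.36 and 8.49 to 9.64 and 9.64 (1.21 ± 0.06). The run was looked at after the value of Rian was seen, and which transcripts these features read is not known here.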
